A study of Homo sapiens with 8 samples.

Results

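The expression of 9 keratin genes was followed in A549 cells, a human lung adenocarcinoma line of epithelial type: the type II genes KRT4, KRT7, KRT8, KRT80 and KRT81, and the type I genes KRT10, KRT15, KRT18 and KRT19. They are part of the 54 human keratin genes, looked up by Ensembl identifier in a table of 60664 genes, and were chosen by name after KRT4 had been seen to fall strongly with IFN-γ in these data. The RNA came from 8 libraries, with 2 for each of 4 groups: untreated cells, cells given IFN-γ, cells given AX-0085, and cells given IFN-γ followed by AX-0085. IFN-γ was used at 20 ng (the labels give no volume). A day of 24 h with or without the cytokine was followed by 24 h with or without AX-0085 at 0.5 μM, after which the cells were harvested. AX-0085 is a kinase inhibitor that the study tested as a blocker of IFN-γ signalling. All groups were the same unmodified cell line in the same medium with fetal bovine serum. The labels do not say whether the 2 libraries of a group came from separate cultures, so the p-values below measure only the spread between these libraries, which may be technical.

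Keratins are the intermediate filament proteins of epithelial cells. Each filament is built from a type I and a type II keratin in equal amounts, and the pair that a cell makes marks its kind of epithelium: KRT8 and KRT18, joined by KRT7 and KRT19, in simple epithelia such as that of the lung; KRT4 with KRT13 in the wet stratified lining of the mouth and oesophagus; KRT15 in basal cells; KRT10 in the upper epidermis; and KRT81 in the hair. Filaments are anchored at desmosomes, the cell-to-cell junctions that hold epithelia together.

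Counts were present for 7 of the 9 genes, and all 7 passed the filter on low counts. KRT80 (ENSG00000167767, chr12:52168996-52192014, minus strand) and KRT81 (ENSG00000205426, chr12:52285913-52291534, minus strand) had 0 counts in all 8 libraries and were not measured, so no value is given for either. Total counts ranged from 20672828 to 29978251 per library. Divided by these unscaled totals, 3 counts, the floor used here, correspond to between 0.100 and 0.145 CPM, a limit that covers counting error only. All other CPM values are counts divided by the scaled library size, so on their scale the floor differs somewhat from this range. The spread between the libraries of a group exceeded counting noise (chi-square per degree of freedom 8.55 to 27.7). In bulk RNA, fewer cells of a type and less RNA per cell cannot be told apart.

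The genes lie in the 2 keratin clusters of the genome (GRCh38, positions of the GENCODE 44 annotation), 6 on chromosome 12 within 784 kb and 3 on chromosome 17 within 710 kb. KRT8 (ENSG00000170421, chr12:52897187-52949954, minus strand) and KRT18 (ENSG00000111057, chr12:52948871-52952906, plus strand) overlap on opposite strands and share 525 exon bases, which are 7.63% of the exon bases of KRT8 and 17.1% of those of KRT18. KRT4 (ENSG00000170477, chr12:52806549-52814116, minus strand) begins 83070 bases from KRT8. KRT7 (ENSG00000135480, chr12:52232520-52252186, plus strand) shares 7.85% of its exon bases with antisense and pseudogene models. KRT10 (ENSG00000186395, chr17:40818117-40822614, minus strand) shares 2.82% with KRT10-AS1. KRT15 (ENSG00000171346, chr17:41513745-41522529, minus strand) and KRT19 (ENSG00000171345, chr17:41523617-41528308, minus strand) are neighbours with 1087 bases between them. The kit kept the strand, but the strand setting of the counting and its treatment of reads that match several places are not given in the sources used here, so counts of overlapping genes, and of KRT8 and KRT18 with their many processed pseudogenes, are uncertain to that extent.

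The 7 measured genes took between 0.590% and 0.957% of all counts of a library and between 95.3% and 97.0% of the counts of all 54 keratin genes. Levels were set between genes as TPM, for which counts are divided by exon length and scaled to the same total in each library. In untreated cells KRT18 stood at 2700 ± 33.7 TPM (SD, n = 2 in this and every other group), KRT7 at 2256 ± 120 and KRT8 at 2198 ± 74.0, and the libraries of KRT7 and KRT8 overlapped. KRT19 at 65.5 ± 1.00 TPM and KRT10 at 64.5 ± 6.32 overlapped as well, followed by KRT4 at 35.7 ± 1.92 and KRT15 at 1.76 ± 0.0141. The simple epithelial trio KRT7, KRT8 and KRT18 was therefore far above the other members. In IFN-γ cells the order was KRT7 (3630 TPM), KRT18 (1228), KRT8 (805), KRT10 (106), KRT19 (14.2), KRT15 (1.13) and KRT4 (0.277), with no overlap between neighbours. With AX-0085 alone it was KRT7 (2190 TPM), KRT8 (1101), KRT18 (1030), KRT19 (65.8), KRT10 (60.9), KRT4 (17.3) and KRT15 (0.692), where KRT8 overlapped KRT18 and KRT19 overlapped KRT10. With both agents it was KRT7 (3202 TPM), KRT8 (1310), KRT18 (1118), KRT10 (81.6), KRT19 (36.1), KRT4 (4.14) and KRT15 (0.291), with no overlap. The order of KRT18 against KRT7 and KRT8 depends on the length used: with the longest transcript in place of all exon bases, KRT18 came below both in untreated cells, at 2891 TPM against 4044 for KRT7 and 3850 for KRT8.

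**Figure D1:**
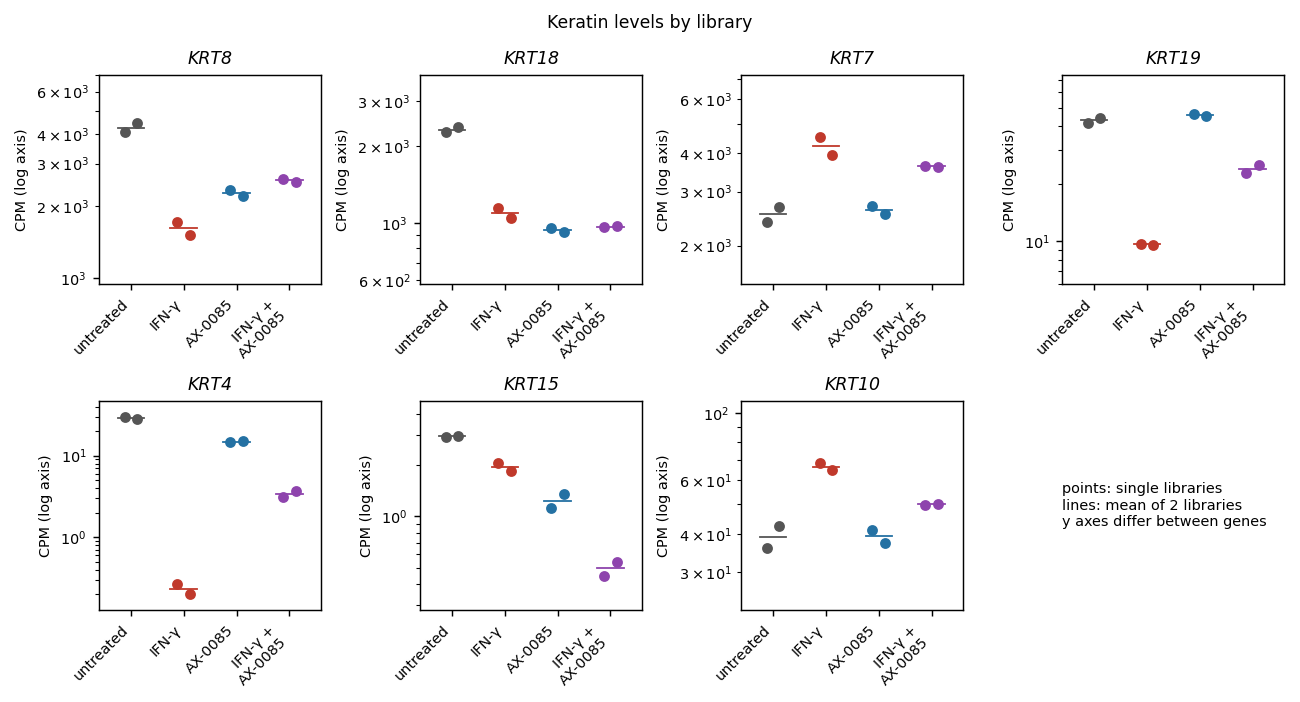
Level of each measured keratin gene in every library, in CPM on a log axis whose range differs between genes; points are single libraries and lines the mean of the 2 libraries of a group. KRT4 spans the widest range, from 29.4 CPM in an untreated library to 0.201 CPM in an IFN-γ library, and KRT7 and KRT10 are highest in the IFN-γ libraries.

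KRT8 and KRT18 are the obligate partners of simple epithelia, the first keratins to appear in the embryo. KRT8 stood at 4076 and 4415 CPM in the untreated libraries, at 1715 and 1508 with IFN-γ, at 2330 and 2192 with AX-0085, and at 2583 and 2524 with both. No groups overlapped, and the untreated libraries were the highest and the IFN-γ libraries the lowest. KRT18 stood at 2267 and 2383 CPM untreated, 1146 and 1046 with IFN-γ, 959 and 927 with AX-0085, and 970 and 975 with both. Here the untreated libraries stood alone at the top, and the 3 treated groups lay close together. The counts of KRT8 per count of KRT18 were 1.80 and 1.85 in untreated libraries, 1.496 and 1.44 with IFN-γ, 2.43 and 2.36 with AX-0085, and 2.66 and 2.59 with both, so that the partners did not keep a fixed ratio of RNA.

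KRT7 is the type II keratin of glandular and ductal simple epithelia and a common marker of lung adenocarcinoma. It stood at 2397 and 2669 CPM in untreated libraries, 4516 and 3937 with IFN-γ, 2692 and 2535 with AX-0085, and 3643 and 3614 with both. Both IFN-γ groups lay above both groups without IFN-γ. KRT7 took 26.6% of all keratin counts in untreated cells, 57.5% with IFN-γ, 42.6% with AX-0085 and 48.3% with both, while KRT8 took 44.6%, 21.9%, 36.9% and 34.0%. There were 0.588 and 0.605 counts of KRT7 per count of KRT8 in the untreated libraries and 2.63 and 2.61 in the IFN-γ libraries, with 1.16 in each AX-0085 library and 1.41 and 1.43 with both. KRT8 thus took more counts than KRT7 in the untreated libraries and fewer in all 6 treated ones, while per exon length KRT8 did not lead in any group.

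**Figure D2:**
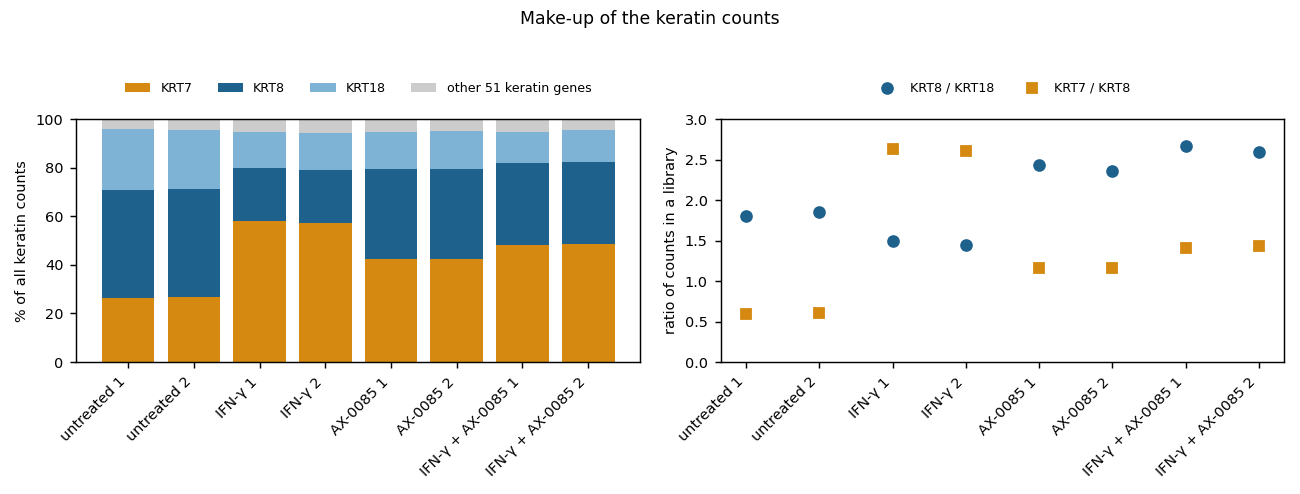
Left, the share of all keratin counts (%) taken by KRT7, KRT8, KRT18 and the other 51 keratin genes in each library; right, the ratio of counts of KRT8 to KRT18 (circles) and of KRT7 to KRT8 (squares) in each library. The share of KRT7 runs from 26.3% in an untreated library to 58.0% in an IFN-γ library, and the 2 libraries of a group lie close together.

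KRT19 is the smallest keratin, a type I protein without the usual tail, made in simple and ductal epithelia. It stood at 41.8 and 44.1 CPM in untreated libraries, 9.72 and 9.53 with IFN-γ, 46.5 and 45.2 with AX-0085, and 22.9 and 24.9 with both. The untreated and AX-0085 libraries lay highest and next to each other, and the libraries with both agents lay between them and IFN-γ. Summed over all 54 keratin genes, members and others, type I keratins came to 2832 TPM in untreated cells, 1355 with IFN-γ, 1158 with AX-0085 and 1236 with both. Type II keratins came to 4951, 4911, 3620 and 4949, sums that include the non-members KRT86 and KRT83. The ratio of type II to type I RNA was 1.75 ± 0.0625 in untreated cells, 3.62 ± 0.0914 with IFN-γ, 3.13 ± 0.0763 with AX-0085 and 4.00 ± 0.0968 with both. All 6 treated libraries thus held a higher ratio than the untreated ones. The smallest p that an exact permutation test of 2 libraries against 2 allows is 1 in 3, so these ratios were not tested.

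KRT4, the mucosal type II keratin, had the lowest level of any measured member in IFN-γ cells. Its counts were 890 and 692 in the untreated libraries, 5 and 5 with IFN-γ, 368 and 400 with AX-0085, and 98 and 81 with both. In CPM these were 29.4 and 28.2, 0.264 and 0.201, 14.7 and 15.1, and 3.13 and 3.64. The groups fell in the order untreated, AX-0085, both and IFN-γ with no overlap, and the IFN-γ libraries lay just above the floor of 3 counts. Its usual type I partner KRT13 was at 0 counts in the untreated, IFN-γ and AX-0085 libraries and at a mean of 0.0160 CPM with both. The 250 bases before its start are shown, with those of KRT10 below, because these members stood at opposite ends in the IFN-γ libraries, KRT4 far below and KRT10 above the untreated level. They are read 5′ to 3′ on the minus strand from the promoter table of RefSeq (GRCh38.p14), which held 3 of the 9 members (KRT4, KRT8 and KRT10), and capitals mark motif matches.
KRT4 promoter, chr12:52814117-52814366: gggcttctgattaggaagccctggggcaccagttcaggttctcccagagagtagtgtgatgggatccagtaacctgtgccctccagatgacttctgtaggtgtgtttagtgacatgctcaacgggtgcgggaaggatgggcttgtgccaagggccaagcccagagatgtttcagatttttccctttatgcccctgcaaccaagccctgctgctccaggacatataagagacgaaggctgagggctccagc
KRT10 promoter, chr17:40822615-40822864: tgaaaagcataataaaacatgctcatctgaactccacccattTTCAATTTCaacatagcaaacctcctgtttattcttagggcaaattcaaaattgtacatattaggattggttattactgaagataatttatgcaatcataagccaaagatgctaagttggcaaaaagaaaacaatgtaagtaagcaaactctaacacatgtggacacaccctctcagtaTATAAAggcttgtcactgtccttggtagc

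The search for motifs ran on both strands in windows of 300 bases, from 250 before to 50 after the start, for 4 elements: the GAS element of IFN-γ target genes (TTCNNNGAA), an ISRE-like element (GAAANNGAA), the AP-1 site (TGANTCA) and the TATA box (TATAAA). Of 35116 promoters of that length, 7.66% held the GAS element, 8.11% the ISRE-like element, 7.71% the AP-1 site and 11.5% the TATA box. The window of KRT4 held no match to these letters. The window that the table gives for KRT8 lies inside the span given above for that gene, not before its start, and is not described. The window of KRT10 held an ISRE-like match at position −208 on the opposite strand and a TATA box at −29, counted from the start. G and C made up 54.8% of the bases shown for KRT4 and 34.8% of those for KRT10. A match is a description of these letters and not a site shown to be used.

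KRT15 is a type I keratin of basal cells and the member with the lowest level in untreated cells. Its counts were 88 and 73 in the untreated libraries, 39 and 46 with IFN-γ, 28 and 36 with AX-0085, and 14 and 12 with both. In CPM these were 2.91 and 2.97, 2.06 and 1.85, 1.12 and 1.35, and 0.448 and 0.539. The 4 groups did not overlap, and unlike the other members KRT15 was lowest with both agents together. KRT10, the type I keratin of differentiating epidermis, stood at 35.8 and 42.5 CPM untreated, 68.4 and 64.6 with IFN-γ, 41.2 and 37.3 with AX-0085, and 49.8 and 50.3 with both. Its untreated and AX-0085 libraries overlapped, and the libraries with both agents lay between these and IFN-γ.

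IFN-γ cells were set against untreated cells to describe the cytokine's change. This comparison chose KRT4, so its values are a description for all members, and no p is given for any of them. On the log2 scale, KRT4 was lower by a fitted −6.95 (SE 0.18), a 124-fold difference. KRT19 was at −2.16 (SE 0.09), KRT8 at −1.40 (SE 0.08) and KRT18 at −1.09 (SE 0.07). KRT15 was at −0.60 (SE 0.20), while KRT10 at 0.77 (SE 0.09) and KRT7 at 0.74 (SE 0.09) were higher. A gene was called where edgeR's quasi-likelihood test gave a Benjamini-Hochberg-adjusted p under 0.05 over 15066 genes and the change was over 2-fold. By that rule 4 of the 7 members were lower (17.2% of all genes tested were) and 0 were higher (10.3% of all genes), and by the adjusted p alone all 7 passed (68.1% of all genes). These counts stand only beside the shares over all genes, and nothing is read from them, since the members were selected on this comparison.

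The addition of AX-0085 to IFN-γ cells asks how far the cytokine's change is undone. It also holds any change that AX-0085 makes without the cytokine. KRT19 rose 2.48-fold over its IFN-γ level (log2 1.31, SE 0.09, adjusted p = 3.47e-08) and KRT8 rose 1.58-fold (0.66, SE 0.08, adjusted p = 9.54e-06). KRT10, which like KRT7 was higher with IFN-γ than in untreated cells, fell 1.33-fold (−0.41, SE 0.09, adjusted p = 0.00106). KRT15 fell further, 3.97-fold (−1.99, SE 0.27, adjusted p = 2.88e-05). KRT7 (−0.22, SE 0.09, adjusted p = 0.0374) and KRT18 (−0.17, SE 0.07, adjusted p = 0.0387) were slightly lower. Neither was past 0.05 with scaling by library size alone (adjusted p = 0.274 and 0.509), with 10 or more counts in each library (0.118 and 0.147), with only the groups compared (0.0963 and 0.0924), with the replicate number as a block (0.0543 and 0.0570), or without IFN-γ replicate 1 (0.176 and 0.144), both agents replicate 1 (0.117 and 0.148) or both agents replicate 2 (0.139 and 0.141). KRT4 was 14.4-fold higher than with IFN-γ alone (3.85, SE 0.26), and as this comparison shares the IFN-γ libraries with the one that chose KRT4, its test is not given. With KRT4 left out, the rule of 2-fold called KRT19 higher (16.5% of all genes) and KRT15 lower (8.28% of all genes). By the adjusted p alone every member but KRT4, which is not counted, passed, where 66.5% of all genes did. The median log2 change of the members was −0.17, against 0.03 over all genes tested.

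With AX-0085 and no IFN-γ, 4 members were lower than in untreated cells and 3 did not pass the adjusted p. KRT18 fell 2.47-fold (log2 −1.30, SE 0.07, adjusted p = 9.25e-09), KRT15 2.37-fold (−1.25, SE 0.21, adjusted p = 0.000230) and KRT8 1.88-fold (−0.91, SE 0.08, adjusted p = 1.07e-06). KRT4 was 1.94-fold lower (−0.96, SE 0.09), with no test given because the untreated libraries are shared with the comparison that chose it. The 3 that did not pass were KRT7 at 0.05 (95% interval −0.14 to 0.23, adjusted p = 0.684), KRT19 at 0.10 (−0.06 to 0.26, adjusted p = 0.295) and KRT10 at 0.01 (−0.19 to 0.20, adjusted p = 0.963). By the rule of 2-fold, 2 members, KRT18 and KRT15, were called lower (5.62% of all genes) and 0 higher (6.41% of all genes). With KRT4 left out, KRT18, KRT15 and KRT8 passed the adjusted p alone (53.3% of all genes). The median of the members was −0.91, against 0.01 over all genes.

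Cells with both agents against AX-0085 alone show the IFN-γ change in the presence of the inhibitor, in 4 libraries that the choice of KRT4 did not use. KRT4 was 4.42-fold lower in them (log2 −2.14, SE 0.11, adjusted p = 6.01e-08). KRT15 fell 2.53-fold (−1.34, SE 0.29, adjusted p = 0.00343) and KRT19 1.92-fold (−0.94, SE 0.08, adjusted p = 2.54e-06). KRT7 rose 1.39-fold (0.47, SE 0.09, adjusted p = 0.00105) and KRT10 1.27-fold (0.35, SE 0.09, adjusted p = 0.00875). The pair KRT8 and KRT18 did not pass the adjusted p, at 0.18 (SE 0.08, adjusted p = 0.113) and 0.04 (95% interval −0.10 to 0.19, adjusted p = 0.662). So 2 members, KRT4 and KRT15, were called lower (1.73% of all genes) and 0 higher (1.79% of all genes). The adjusted p alone was passed by 5, against 34.7% of all genes. The call of KRT15 rests on the library with both agents, replicate 1, without which its adjusted p was 0.0561. For KRT10 the adjusted p was 0.0951 without AX-0085 replicate 2 and 0.0523 without both agents replicate 2. The median of the members was 0.04, against −0.01 over all genes.

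Against untreated cells, cells with both agents had lower KRT4 (8.58-fold, log2 −3.10, SE 0.11, no test given), and KRT15 fell 5.99-fold (−2.58, SE 0.25, adjusted p = 1.51e-06). KRT18 fell 2.39-fold (−1.26, SE 0.07, adjusted p = 8.19e-09), KRT19 1.80-fold (−0.85, SE 0.08, adjusted p = 9.24e-07) and KRT8 1.66-fold (−0.73, SE 0.08, adjusted p = 5.67e-06). KRT7 (0.52, SE 0.09, adjusted p = 0.000194) and KRT10 (0.35, SE 0.09, adjusted p = 0.00404) rose. With KRT4 left out, KRT15 and KRT18 were called lower (7.23% of all genes) and 0 members higher (7.51% of all genes). These 6 members all passed the adjusted p alone (56.9% of all genes). The median was −0.85, against 0.01 over all genes. Every measured member differed between cells with both agents and untreated cells, by this test for 6 of them and by values that do not overlap for KRT4. AX-0085 alone also lowered KRT18, KRT15 and KRT8, so the distance to untreated cells does not measure how far the IFN-γ change was undone.

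**Figure D3:**
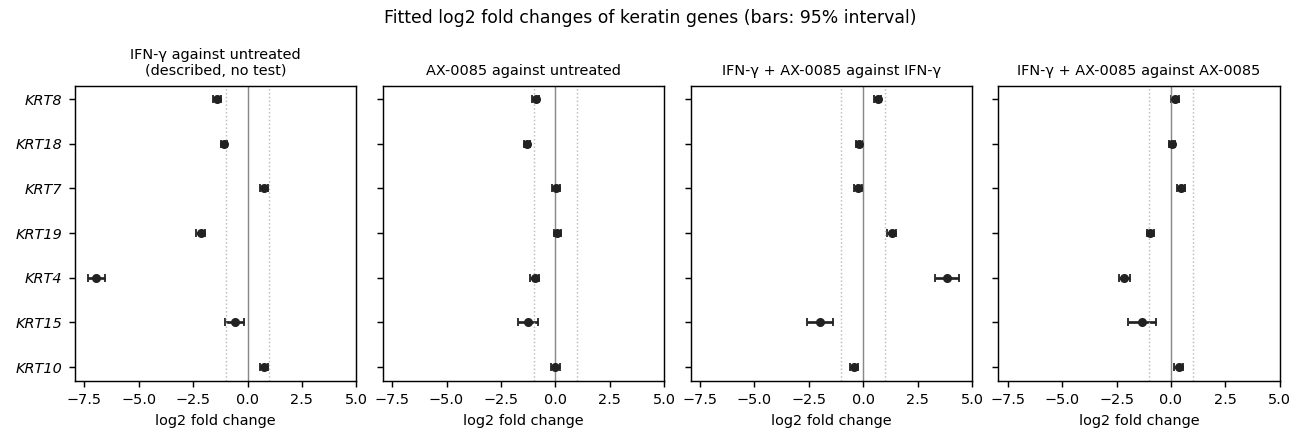
Fitted log2 fold change of each measured keratin gene in 4 comparisons, with bars for the 95% interval, a solid line at 0 and dotted lines at a 2-fold change. With AX-0085 added to IFN-γ, KRT4 (3.85) and KRT19 (1.31) lie to the right and KRT15 (−1.99) to the left, while with both agents against AX-0085 alone KRT4 lies at −2.14.

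Whether the change with AX-0085 differed between cells with and without IFN-γ was described by an interaction term. The term contains the IFN-γ comparison that chose KRT4, so no p is given for any member. KRT8 gave a difference of 1.57 on the log2 scale (SE 0.12): it fell with AX-0085 alone and rose on its addition after IFN-γ. KRT18 gave 1.13 (SE 0.10), with a change of −1.30 for AX-0085 alone and −0.17 after IFN-γ. KRT19 gave 1.21 (SE 0.12) and KRT10 −0.42 (SE 0.13). The value of KRT10 ran from −0.54 to −0.31 with each library left out in turn, and was −0.30 with scaling by library size alone. KRT15 gave −0.74 (SE 0.36) and KRT7 −0.27 (SE 0.12). The value of KRT7 ran from −0.38 to −0.17 with each library left out in turn, and from −0.30 to −0.15 under the other settings. The value of KRT4 was 4.81 (SE 0.27), a description only. With KRT4, 4 members were above the 2-fold rule (12.1% of all genes) and 0 below it (6.46% of all genes), and 5 passed the adjusted p alone (50.3% of all genes). The median was 1.13, against 0.05 over all genes. These counts and the median stand only beside those over all genes. Nothing is read from them, since the term contains the comparison on which the members were selected. All 6 comparisons rest on the same 8 libraries and share groups, so they are not independent of each other.

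Of the 45 other keratin genes, 33 had a count and 6 were tested. The hair keratins KRT86, KRT83 and KRT85 had counts in every group. KRT86 (chr12:52249300-52309163, plus strand), whose span contains KRT81 and whose sequence is close to that of KRT81 and KRT83, stood at 244 and 306 CPM untreated, 288 and 289 with IFN-γ, 205 and 169 with AX-0085, and 278 and 228 with both. It fell with AX-0085 alone (log2 −0.56, SE 0.11, adjusted p = 0.00116), was higher with both agents than with AX-0085 (0.44, SE 0.11, adjusted p = 0.0103), and passed the 2-fold rule in no comparison. KRT83 ran from 24.8 to 37.1 CPM and KRT85 from 0.757 to 1.57 CPM, and neither passed the adjusted p in any comparison. The treatment of reads that match several genes is not given, so the counts of KRT81, KRT83 and KRT86 are uncertain against each other. The stress keratin KRT17, made in wounded epidermis, had 43 and 40 counts with IFN-γ and between 0 and 4 in each of the other 6 libraries. KRT16, its companion in wounded skin, had 19 and 22 counts with IFN-γ and at most 2 elsewhere, and the hair keratin KRT34 had 17 and 18 with IFN-γ and at most 3 elsewhere. KRT16 and KRT34 were named after their values were seen. All 3 passed the filter on low counts through the IFN-γ libraries, so a higher value there was a condition of being tested and no test is given. KRT16 and KRT17 have near-identical pseudogenes that could share reads.

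Desmosomal and linker proteins tie keratin filaments to the membrane, and 17 of the 22 listed were tested. The genes named from this and the following lists had the largest called change in a comparison. Passing there was the condition for naming them, so the adjusted p given for that comparison is no further support. With IFN-γ 1 was higher and 5 were lower (median −0.50), where 10.3% of all genes were higher and 17.2% lower (−0.06). On adding AX-0085 3 were higher and 1 lower (0.29), against 16.5% and 8.28% of all genes (0.03), and with AX-0085 alone 1 was higher and 1 lower (0.24), against 6.41% and 5.62% (0.01). With both agents against AX-0085 none was called by edgeR, where 1.79% of all genes were higher and 1.73% lower. At an adjusted p under 0.05 there were 6 of 17, 2 higher and 4 lower, where 34.7% of all genes passed. JUP, the plakoglobin that links desmosomal cadherins to desmoplakin, stood at 188 and 192 CPM untreated, 19.1 and 17.5 with IFN-γ, 374 and 352 with AX-0085, and 213 and 214 with both. It fell with IFN-γ (log2 −3.38, SE 0.07, adjusted p = 5.07e-13) and rose on addition of AX-0085 (3.54, SE 0.07, adjusted p = 7.02e-13). DSP, desmoplakin itself, which binds keratins, rose 2.06-fold with AX-0085 (1.04, SE 0.07, adjusted p = 1.07e-07). COL17A1, the hemidesmosomal collagen, had 29 counts in each untreated library, 3 and 6 with IFN-γ, and 5 and 6 with AX-0085. EPPK1, epiplakin, had 1 and 3 counts in untreated libraries, 12 and 35 with IFN-γ, 10 and 4 with AX-0085, and 5 and 2 with both. It passed the filter through its IFN-γ libraries and COL17A1 through its untreated ones, so no test is given for either.

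Other intermediate filament genes gave no common direction. Of 15 listed, 10 were tested, and with IFN-γ 1 was higher and 3 were lower (median −0.20), beside 10.3% and 17.2% of all genes. With AX-0085 alone 2 were higher and 3 lower (−0.50), beside 6.41% and 5.62%, and on adding AX-0085 to IFN-γ 2 were higher and 2 lower (0.47), beside 16.5% and 8.28%. NES, nestin of progenitor cells, fell with IFN-γ from 7.78 and 6.43 CPM to 0.264 and 0.161 (−5.08, SE 0.34, adjusted p = 2.32e-08), the same order of groups as KRT4, with 2.71 and 2.41 CPM under AX-0085 and 0.735 and 1.44 with both. LMNB2, the nuclear lamin B2, fell 3.09-fold with AX-0085 (−1.63, SE 0.07, adjusted p = 1.52e-09). INA, internexin of neurons, rose 2.39-fold with IFN-γ (1.25, SE 0.08, adjusted p = 2.05e-08) and fell on addition of AX-0085 (−1.19, SE 0.08, adjusted p = 4.05e-08). BFSP1, a lens filament protein, rose 2.17-fold with AX-0085 (1.12, SE 0.10, adjusted p = 9.24e-07), and GFAP, the astrocyte filament, fell on addition of AX-0085 to IFN-γ (−2.64, SE 0.45, adjusted p = 0.000171) at levels of 0.128 to 1.57 CPM.

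Transcription factors and splicing regulators of epithelia were the last list, with 14 of 19 tested. With IFN-γ 3 were higher and 4 lower (median −0.14), beside 10.3% and 17.2% of all genes. On adding AX-0085 2 were higher and 1 lower (−0.34), beside 16.5% and 8.28%, and with AX-0085 alone 1 was higher and 2 lower (0.23), beside 6.41% and 5.62%. KLF4, a factor of epithelial differentiation, rose from 10.4 and 9.69 CPM to 61.2 and 62.3 with IFN-γ (2.62, SE 0.08, adjusted p = 1.96e-11) and also rose with AX-0085 alone (1.22, SE 0.08, adjusted p = 1.05e-07). CEBPB was 265.7 and 263 CPM with IFN-γ against 42.6 and 70.1 untreated, and fell on addition of AX-0085 (−1.06, SE 0.15, adjusted p = 2.68e-05). EHF, an epithelial ETS factor, fell 5.45-fold with IFN-γ (−2.45, SE 0.28, adjusted p = 4.23e-06) and rose 3.94-fold on addition of AX-0085 (1.98, SE 0.30, adjusted p = 6.13e-05). GRHL1 fell 3.84-fold with AX-0085 alone (−1.94, SE 0.26, adjusted p = 4.22e-05). ESRP1, a splicing factor of epithelial cells, was below 1 CPM throughout. It had 3 counts in each untreated library, 12 and 14 with IFN-γ, 10 and 5 with AX-0085, and 16 and 7 with both. It passed the filter on low counts through treated libraries, so no test against untreated cells is given.

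The genes with the pattern nearest to KRT4 were found by the Euclidean distance between log2 CPM values centred per gene over the 8 libraries, among the 10128 tested genes whose mean log2 CPM was 2 or more. They were HSPA1A (distance 2.31, Pearson's r 0.997 over 8 libraries), HSPA1B (2.46), CTSV (2.76) and LRRC45 (3.02). The first pair encodes the inducible heat shock protein HSP70 from near-identical copies, so their counts are uncertain against each other. HSPA1A had a mean of 549.9 CPM untreated, 19.4 with IFN-γ, 365 with AX-0085 and 118 with both. LRRC45 differed from KRT4 with both agents, where it was at 13.8 CPM against 17.2 with AX-0085 alone. The libraries share their treatment, so these distances are a description. The same search could not be made for KRT81, which had no counts.

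**Figure D4:**
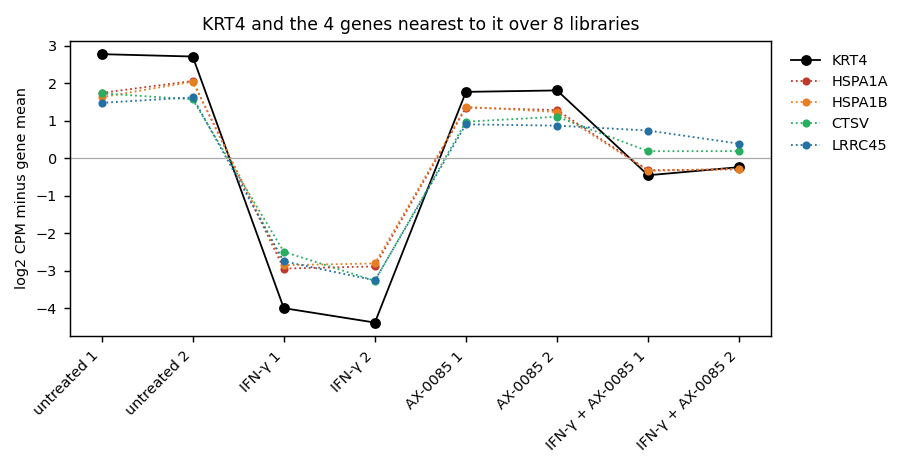
Log2 CPM of KRT4 (black line) and of the 4 genes nearest to it, each minus its own mean, in the 8 libraries. All 5 genes are lowest in the IFN-γ libraries, where KRT4 lies at −4.00 and −4.38, and CTSV and LRRC45 stay above their mean with both agents.

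In every group the markers of each other cell type summed to less than those of simple epithelium. The 5 markers of simple epithelium (EPCAM, CDH1, CLDN7, ELF3 and MUC1) summed to 105 to 111 CPM in untreated libraries, 49.3 to 55.6 with IFN-γ, 179 to 198 with AX-0085 and 216 to 226 with both, and 5, 4, 5 and 5 of them had over 3 counts in both libraries. Between IFN-γ and both agents this sum rose, as KRT19 and KRT8 did, though MUC1 within it did not (3.70 and 3.10 CPM, then 3.17 and 3.33). With AX-0085 alone the sum was above untreated, while KRT8 was lower and the change of KRT19 did not pass. In every group most of the sum came from CDH1 and ELF3. The part of this sum in the keratin values was not tested. Of the alveolar type 2 markers that the label's tissue would hold, SFTPA1 and NKX2-1 were at 0 in all libraries and the 4 genes summed to at most 0.494 CPM. Basal or squamous markers, counting KRT5 and KRT14, summed to 0.674 to 1.88 CPM with IVL at 0. Blood markers reached at most 0.438 CPM with CD3E and CD68 at 0, endothelial ones 0.529 CPM, and mesenchymal ones 2.97 to 11.2 CPM with COL1A2 at 0.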

How the data were processed

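Total RNA of A549 cells was made into stranded mRNA libraries. The authors trimmed the reads with Trim Galore 0.6.7, mapped them to GRCh38 with STAR 2.7.9a and counted them per gene with featureCounts, and the deposited values are whole-number counts without normalization. The annotation release is not given in the sources used here. Identifiers were matched to GENCODE 44 for symbols, positions and exon lengths (60463 of 60664 rows).

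Genes were filtered (filterByExpr), scaled (TMM) and tested with edgeR 4.0.16 (quasi-likelihood, R 4.3.3), in 1 model with a term for each of the 4 groups over the 8 libraries and no covariate. Adjustment was by Benjamini-Hochberg over 15066 genes, and calls required an adjusted p under 0.05 and a log2 change over 1 in size. CPM used TMM-scaled library sizes, and a prior count of 0.125 was used for log2 changes. On simulated counts for 14653 genes in the comparison of IFN-γ with untreated cells, 100% of 200 genes planted at a log2 change of 2 were called, with 3 others. The planted genes were drawn only from those with higher mean counts, so the share does not cover genes with few counts such as KRT15. They were changed in the IFN-γ group alone and were far fewer than the genes that passed in the data. Alternatives were DESeq2 1.42.0, its size factors, library size alone, other filters, only the groups compared, a replicate block and leaving out each library.

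The keratin genes and gene lists were chosen with earlier results of these data known. Named were all 9 keratins, other keratins of at least 1 CPM in a group, the called gene with the largest change in each direction of each list and comparison, and the 5 genes nearest to KRT4, of which 1 is not reported here. Same-numbered libraries did not deviate together (correlations of deviations between −0.0738 and 0.0444), so the numbers were not taken to pair them.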

Additional observations from a re-analysis of the deposited data

Results flagged for a closer look

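The keratin genes KRT4, KRT8, KRT10, KRT18 and KRT19 were picked out because AX-0085 changed them differently with and without IFN-γ. For KRT8 the difference of the log2 changes was 1.57, for KRT19 1.21, for KRT18 1.13 and for KRT10 −0.42. Each is a fitted value of the interaction term, given without a test because the term contains the IFN-γ change. For KRT4 it was 4.81: both libraries with AX-0085 alone lay below both untreated libraries, and both libraries with the 2 agents lay above both IFN-γ libraries, while the difference itself was not tested because KRT4 was chosen by its IFN-γ change. The groups hold 2 libraries each, so no library could be examined for standing apart within its group.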

How the results depend on the processing

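With the adjusted p alone as the rule, 7 keratin genes were called with IFN-γ (68.1% of all genes) and 7 on adding AX-0085 to IFN-γ (66.5%). The numbers were 4 with AX-0085 (53.3%), 5 with both agents against AX-0085 (34.7%) and 7 with both against untreated (56.9%). KRT4 is in these counts as a description only, except for both agents against AX-0085. For both against AX-0085 keeping genes with 10 or more counts in each of the libraries left 1 call, since KRT4 has 5 counts in each IFN-γ library and was not tested there. Of the 12379 genes then tested, 147 were higher and 98 lower. With each library left out in turn, the log2 change of KRT18 with IFN-γ ran from −1.14 to −0.97. That of KRT15 in both against AX-0085 ran from −1.47 to −1.16, the smallest without both agents replicate 1. With the longest transcript as length, the TPM ratio of type II to type I keratins was 2.74 untreated, 5.85 with IFN-γ, 4.97 with AX-0085 and 6.43 with both, and it kept untreated as the lowest group.

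Values near 0 turned sign with AX-0085 alone: leaving out 1 library gave −0.017 to 0.12 for KRT7 and −0.10 to 0.13 for KRT10, with the lowest values without untreated replicate 1, and KRT10 was also at −0.07 without AX-0085 replicate 1, −0.0065 with no filter beyond 1 count and −0.0024 with only the groups compared. The cause was not tested. Scaling by library size alone moved the median of all genes to −0.18 with IFN-γ and to 0.16 on adding AX-0085, from −0.06 and 0.03. KRT8 in both against AX-0085 passed with DESeq2 (adjusted p = 0.0468), no filter beyond 1 count (0.00758), only the groups compared (0.0140), and without IFN-γ replicate 1 (0.0354) or 2 (0.0152).

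With the replicate number as a block and KRT4 counted, as many keratin genes were called as without the block. They numbered 4 with IFN-γ, 3 on adding AX-0085, 2 with AX-0085, 2 in both against AX-0085, 3 in both against untreated and 4 in the interaction. Of 15066 genes tested, 1537 were higher and 2561 lower with IFN-γ. The same numbers were 2456 and 1237 on adding AX-0085, 946 and 834 with AX-0085, and 255 and 246 in both against AX-0085. They were 1115 and 1066 in both against untreated and 1770 and 968 in the interaction. KRT7 (adjusted p = 0.0543 by edgeR) and KRT18 (0.0570) on adding AX-0085 to IFN-γ were no longer past 0.05. With 5 counts per IFN-γ library, the size of the KRT4 change is limited by counting error. The sum of KRT81 and KRT86 was not run because KRT81 had no counts, nor was the interaction with only the groups compared, which needs all groups.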
